A study of Mus musculus with 24 samples.

Results

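The Cyp2d genes encode cytochrome P450 enzymes of the mouse liver and lie side by side on chromosome 15. Probes were taken as Cyp2d probes when they were not control spots and the scanner files named one of 9 genes: Cyp2d9, Cyp2d10, Cyp2d11, Cyp2d12, Cyp2d13, Cyp2d22, Cyp2d26, Cyp2d34 or Cyp2d40. This gave 12 of the 56605 probes on the array, for 9 of 37325 gene names. Cyp2d13, Cyp2d26 and Cyp2d40 had 2 probes each, and the other 6 genes had 1. All 12 passed the detection filter for testing.

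Liver RNA of C57BL/6J mice was hybridised to 24 single-colour Agilent arrays in 4 groups of 6, with the dye Cy3. Per the labels, males and females each had a control diet or, in the pesticide groups, a diet with a mixture of pesticides, which the study's title sets at the Acceptable Daily Intake. Either diet was fed for 52 weeks. The mice were bought at 8 weeks of age, acclimatised for 2 weeks and, per the labels, 68 weeks old when the liver was taken, an age to which the stated periods do not add up. The labels carry no mouse number, so p-values measure the spread between these samples.

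The labelled sexes did not match the transcripts of the sex chromosomes. Xist, the RNA of the inactive X chromosome, was well above background on 0 of 12 control arrays and on all 12 pesticide arrays, whatever the labelled sex. In labelled males its mean log2 signal was 5.08 ± 0.10 with the control diet and 8.24 ± 0.11 with pesticides, and in labelled females 5.12 ± 0.24 and 8.21 ± 0.16 (SD, n = 6 each). Eif2s3y, on the Y chromosome, ran the other way, from 10.94 ± 0.05 to 5.08 ± 0.15 and from 10.99 ± 0.17 to 5.13 ± 0.16 (SD, n = 6 each). Ddx3y, Kdm5d and Uty, also Y-linked, were well above background on the control arrays alone. Labelled diet and sex-chromosome transcripts therefore coincided on every array, and what follows the diet cannot be told apart from what follows those transcripts. The labels of sex and diet may be exchanged for part of the samples, which was not tested, so a labelled diet difference may be one between sexes. Differences below are given as labelled pesticide minus labelled control, within each labelled sex.

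P450 enzymes sit in the membrane of the endoplasmic reticulum, carry a haem group and oxidise fat-soluble compounds with electrons passed on by Por, the P450 reductase. In mice the Cyp2d group has grown by gene duplication to many close copies, whereas humans keep 1 working gene, CYP2D6, known for its part in drug metabolism. Cyp2d9, a testosterone hydroxylase, is known to be expressed mainly in male liver, while Cyp2d22 has been described as the mouse gene nearest in function to CYP2D6. Cyp2d13 is listed by RefSeq as a transcribed pseudogene.

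The probes are the sequences behind each value, and close copies can bind the same probe. The longest run of bases shared by probes of different Cyp2d genes was 17 bases, between Cyp2d9 and Cyp2d34, shown in capitals. The next was 11 bases, between Cyp2d10 and Cyp2d11, also in capitals. Both Cyp2d26 probes are shown because they went opposite ways, and neither shared more than 8 bases with another Cyp2d probe.
Cyp2d9: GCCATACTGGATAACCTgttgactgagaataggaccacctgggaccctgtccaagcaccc
Cyp2d34: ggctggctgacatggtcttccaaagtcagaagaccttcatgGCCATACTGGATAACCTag
Cyp2d10: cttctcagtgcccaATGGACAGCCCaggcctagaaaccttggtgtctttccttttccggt
Cyp2d11: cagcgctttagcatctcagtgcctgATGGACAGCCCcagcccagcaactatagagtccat
Cyp2d26 (A_51_P120295): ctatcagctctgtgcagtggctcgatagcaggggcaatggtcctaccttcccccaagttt
Cyp2d26 (A_51_P124132): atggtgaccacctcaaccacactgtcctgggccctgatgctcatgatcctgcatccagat
Searched against every probe on the array, a run of 16 bases of a Cyp2d probe recurred only between Cyp2d9 and Cyp2d34. That run lies at the start of the Cyp2d9 probe and near the end of the Cyp2d34 probe, and no other probe on the array held 16 bases in a row of either. Binding of a probe to the other genes' full transcripts was not tested.

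The probes spanned 420.1 kb of chromosome 15 in the file coordinates of build mm9. From the low end came Cyp2d22 at chr15:82201687-82201746, Cyp2d11 at chr15:82219647-82219706 and Cyp2d10 at chr15:82233388-82233447, all on the minus strand. Cyp2d9 at chr15:82285582-82285641 and Cyp2d12 at chr15:82388259-82388501 were on the plus strand. The Cyp2d12 probe of 60 bases covers a stretch with 183 further bases between its parts, so it joins separate genomic blocks. On the minus strand followed Cyp2d34 at chr15:82447966-82448025, the Cyp2d13 probes at chr15:82466843-82466902 and chr15:82469006-82469065, and the Cyp2d40 probes at chr15:82590288-82590347 and chr15:82590878-82590937. The Cyp2d26 probes closed the cluster at chr15:82620575-82620634 (A_51_P120295) and chr15:82621770-82621829 (A_51_P124132). On the minus strand the second Cyp2d26 probe lies 1195 bases upstream of the first. Exon and UTR annotation on this build was not used here.

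Promoters were matched for 5 of the 9 genes in RefSeq sequence of build GRCm38.p6 (250 bases before to 50 after the start), namely Cyp2d9, Cyp2d10, Cyp2d11, Cyp2d26 and Cyp2d40. They are shown for Cyp2d9 (chr15:82452127-82452426, plus strand), whose signal fell most among these 5 genes, for Cyp2d11 (chr15:82393973-82394272, minus strand), for Cyp2d10 (chr15:82407145-82407444, minus strand), and for the more distant Cyp2d26 (chr15:82794196-82794495, minus strand). Capitals mark matches to CAAAGNNCA, a core of sites of the liver nuclear receptor HNF4A, and to TATAA, the TATA box, on either strand.
Cyp2d9 promoter: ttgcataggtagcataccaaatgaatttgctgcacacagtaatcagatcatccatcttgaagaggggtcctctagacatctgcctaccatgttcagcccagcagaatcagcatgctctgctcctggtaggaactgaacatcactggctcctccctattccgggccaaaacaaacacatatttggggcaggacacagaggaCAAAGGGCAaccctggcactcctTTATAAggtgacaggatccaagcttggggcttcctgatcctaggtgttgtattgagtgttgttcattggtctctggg
Cyp2d11 promoter: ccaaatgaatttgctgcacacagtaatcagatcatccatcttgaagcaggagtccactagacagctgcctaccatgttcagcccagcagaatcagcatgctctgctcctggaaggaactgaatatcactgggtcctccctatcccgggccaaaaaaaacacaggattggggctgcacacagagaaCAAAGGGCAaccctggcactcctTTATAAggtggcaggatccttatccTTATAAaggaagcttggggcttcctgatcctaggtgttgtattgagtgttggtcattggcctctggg
Cyp2d10 promoter: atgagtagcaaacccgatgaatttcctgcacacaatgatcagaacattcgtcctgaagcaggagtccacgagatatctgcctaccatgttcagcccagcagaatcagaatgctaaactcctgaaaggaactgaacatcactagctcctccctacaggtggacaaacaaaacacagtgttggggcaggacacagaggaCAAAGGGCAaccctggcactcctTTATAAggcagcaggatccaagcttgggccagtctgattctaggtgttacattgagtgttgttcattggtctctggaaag
Cyp2d26 promoter: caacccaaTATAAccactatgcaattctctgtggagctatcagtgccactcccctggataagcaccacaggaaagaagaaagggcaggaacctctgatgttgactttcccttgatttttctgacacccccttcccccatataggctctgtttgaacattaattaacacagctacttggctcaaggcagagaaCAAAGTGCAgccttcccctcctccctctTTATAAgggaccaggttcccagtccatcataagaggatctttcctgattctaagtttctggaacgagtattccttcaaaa
All 5 held 1 match to CAAAGNNCA, against 6.36% of 32851 promoters of the same length. In Cyp2d9 it covered bases -50 to -42 from the start, in Cyp2d10 -53 to -45, in Cyp2d11 -65 to -57, in Cyp2d26 -58 to -50 and in Cyp2d40 -113 to -105. TATAA also occurred in all 5, against 24.9% of all promoters; in each gene its reverse complement overlapped it in the shared run TTATAA. A match to TTCNNNGAA, the STAT-type motif, was in 0 of the 5 and in 8.3% of all promoters. These matches are letters in a window, not measured binding. Several of the promoters are close copies in sequence, so their matches are not independent counts. The Cyp2d9 promoter was 94.0% identical to that of Cyp2d11 over 284 aligned bases, 84.8% identical to Cyp2d10 over 296, 81.0% to Cyp2d40 over 231 and 65.3% to Cyp2d26 over 262. Among the 5 matched promoters the nearest to that of Cyp2d9 was that of Cyp2d11, whose signal differed far less between the labelled diets (values below). The promoters of Cyp2d34 and the other unmatched genes were not compared. Whether promoter sequence has a part in the differences was not tested.

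Signal was far lower in the labelled pesticide groups for Cyp2d9 and Cyp2d34. It was lower by a small step for Cyp2d11 and the upstream Cyp2d26 probe, and differences were within the error for most other members. In labelled males 1 of the 12 probes was higher and 5 were lower at a limma adjusted p under 0.05, where 22.2% of all 32078 tested probes passed (11.6% higher and 10.7% lower). In labelled females 1 was higher and 4 were lower, where 18.3% passed (8.88% higher and 9.44% lower). The median log2 difference of the 12 probes was -0.21 in labelled males and -0.11 in labelled females, beside -0.03 and -0.02 over all tested probes. What stood out was the size for 2 of the genes, more than the count.

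**Figure D1:**
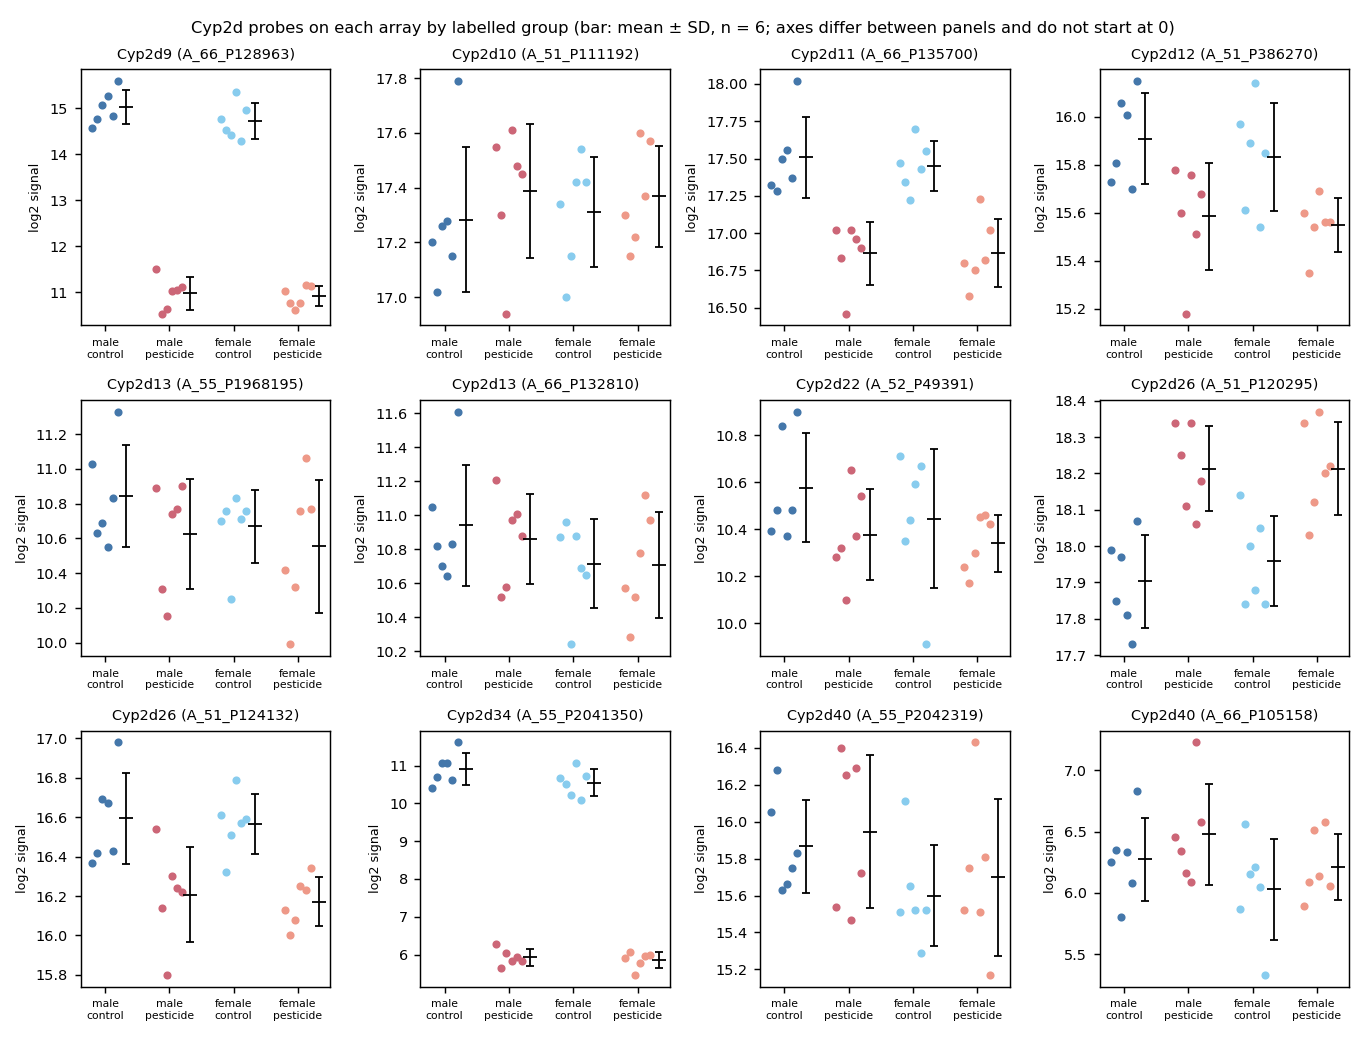
Normalized log2 signal (vertical axis, a separate scale in each panel) of the 12 Cyp2d probes on each of the 24 arrays, by labelled group, with the mean ± SD of 6 arrays as a black bar. Cyp2d9 lies between 14.28 and 15.59 in the control groups and between 10.54 and 11.51 in the pesticide groups, and Cyp2d34 between 10.08 and 11.62 against 5.46 and 6.29.

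Cyp2d9 was bright in every control sample. The lowest, median and highest log2 signals were 14.57, 14.95 and 15.59 in labelled male control and 10.54, 11.05 and 11.51 in labelled male pesticide. In labelled female control they were 14.28, 14.65 and 15.35, and in labelled female pesticide 10.62, 10.91 and 11.17. Every control array was above every pesticide array. The log2 difference was -4.04 (SE 0.19, limma adjusted p 2.6e-14, n = 6 a group), a 16.4-fold lower signal, in labelled males. It was -3.80 (SE 0.19, limma adjusted p 1e-13), 13.9-fold lower, in labelled females. Among all 32078 differences it stood at rank 18 and rank 20 from the lowest. The probe stayed well above background on all 24 arrays. Binding of other Cyp2d transcripts to it was not tested, so how much of its pesticide signal is Cyp2d9 RNA is not known.

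Cyp2d34 showed the largest difference among the 12 probes. Its lowest, median and highest log2 signals were 10.41, 10.88 and 11.62 in labelled male control against 5.63, 5.88 and 6.29 in labelled male pesticide. In labelled females they were 10.08, 10.60 and 11.07 against 5.46, 5.94 and 6.07. Here too no pesticide array reached a control array. The log2 difference was -4.99 (SE 0.17, limma adjusted p 6.3e-17), 31.7-fold lower, in labelled males. In labelled females it was -4.69 (SE 0.17, limma adjusted p 2.5e-16), 25.8-fold lower, and the ranks were 14 and 13 from the lowest. The probe was near the detection limit in the pesticide groups, well above background on 4 of 6 labelled male and 6 of 6 labelled female arrays, where the dimmest probes so marked lay at log2 5.11 to 5.59. The value moved with the background treatment: with the scanner's processed signal, scaled by its 75th percentile, the differences were -6.28 and -5.85. Over all alternatives run they lay between -6.28 and -4.46 in labelled males, and between -5.85 and -4.15 in labelled females. The Cyp2d34 probe shares a run of 17 bases with the Cyp2d9 probe, and its binding of other Cyp2d transcripts was not tested. How much of its signal is Cyp2d34 RNA is therefore not known.

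Cyp2d9 and Cyp2d34 kept their direction within each of the 3 slides, which held 2 arrays of each group. In labelled males the Cyp2d9 differences were -3.64, -4.34 and -4.13, and those of Cyp2d34 were -4.59, -5.12 and -5.25. In labelled females they were -3.74, -4.18 and -3.47, and -4.61, -5.03 and -4.44. Both also passed the limma threshold in each of these slides alone.

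Cyp2d11 and Cyp2d10 are neighbours whose probes lie 13682 bases apart, and they parted. Cyp2d11 had lowest, median and highest log2 signals of 17.28, 17.43 and 18.02 in labelled male control and 16.46, 16.93 and 17.02 in labelled male pesticide, with no overlap. In labelled females the values were 17.22, 17.45 and 17.70 against 16.58, 16.81 and 17.23, where the brightest pesticide array was just above the dimmest control array. Cyp2d11 fell by 0.64 on the log2 scale (SE 0.12, limma adjusted p 0.00064) in labelled males and by 0.58 (SE 0.12, limma adjusted p 0.0019) in labelled females. These are 1.56-fold and 1.5-fold lower signals. Within slides 1, 2 and 3 it was lower as well, at -0.38, -0.79 and -0.76 in labelled males, and -0.71, -0.47 and -0.57 in labelled females.

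Cyp2d10 showed no difference past the threshold. Its lowest, median and highest values were 17.02, 17.23 and 17.79 in labelled male control against 16.94, 17.47 and 17.61 with pesticide. Labelled females had 17.00, 17.38 and 17.54 against 17.15, 17.33 and 17.60. The groups overlapped throughout. The log2 difference was 0.10 (95% interval -0.16 to 0.36, limma adjusted p 0.60) in labelled males and 0.05 (-0.20 to 0.31, limma adjusted p 0.81) in labelled females. Its sign depended on the scaling, at -0.15 in labelled males after scaling the median signal by its 75th percentile (limma adjusted p 0.43).

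Because these signals sit at the bright end of the array, where scaling moved small differences, the 2 probes were also subtracted from each other on each array. This pair was chosen after its unequal differences were seen, so it is described without a test. Cyp2d10 minus Cyp2d11 was -0.28, -0.23 and -0.12 (lowest, median, highest) in labelled male control and 0.47, 0.53 and 0.59 in labelled male pesticide. In labelled females it was -0.34, -0.13 and 0.11 against 0.37, 0.53 and 0.57. The pesticide values were all above 0 and the control values below it, except on 1 labelled female control array, and the groups did not overlap. The shift was 0.75 (SE 0.03) in labelled males and 0.64 (SE 0.07) in labelled females. Before normalization it was 0.72 and 0.62. It shows unequal change of the 2 signals, not which of them moved.

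Cyp2d26, the other gene with a split, rose by one probe and fell by the other. Probe A_51_P120295 read 17.73, 17.91 and 18.07 (lowest, median, highest) in labelled male control and 18.06, 18.22 and 18.34 in labelled male pesticide. In labelled females it read 17.84, 17.94 and 18.14 against 18.03, 18.21 and 18.37. The pesticide arrays were mostly the higher ones, with a little overlap in both labelled sexes. Its log2 difference was 0.31 (SE 0.08, limma adjusted p 0.005) and 0.26 (SE 0.08, limma adjusted p 0.023), a 1.24-fold and 1.19-fold higher signal. This call did not hold after scaling the median signal by its 75th percentile, where the differences were 0.12 (limma adjusted p 0.43) and 0.10 (limma adjusted p 0.56). In labelled females it was also lost without pesticide replicate 1 or 4 or control replicate 2 or 6 (limma adjusted p 0.052 to 0.059).

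Probe A_51_P124132 of the same gene read 16.37, 16.55 and 16.98 in labelled male control and 15.80, 16.23 and 16.54 in labelled male pesticide. In labelled females it read 16.32, 16.58 and 16.79 against 16, 16.18 and 16.34. The pesticide arrays were the lower ones, again with overlap. It fell by 0.38 on the log2 scale (SE 0.11, limma adjusted p 0.015) in labelled males and by 0.39 (SE 0.11, limma adjusted p 0.015) in labelled females. Within slides this was uneven in labelled males, at -0.05, -0.63 and -0.47, and -0.40, -0.49 and -0.29 in labelled females.

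Subtracting the second Cyp2d26 probe from the first on each array gave 1.09, 1.29 and 1.62 in labelled male control and 1.80, 2.00 and 2.31 in labelled male pesticide. In labelled females it gave 1.09, 1.48 and 1.53 against 1.88, 2.04 and 2.21. The groups did not overlap. The shift was 0.70 (SE 0.11) in labelled males and 0.65 (SE 0.09) in labelled females, and 0.63 and 0.55 before normalization. It restates the opposite differences of the 2 probes and was not tested. Within slides it was 0.43, 0.97 and 0.70 in labelled males and 0.60, 0.79 and 0.56 in labelled females. For the other genes with 2 probes the same subtraction gave -0.14 (SE 0.08) and -0.11 (SE 0.06) for Cyp2d13, and -0.13 (SE 0.25) and -0.08 (SE 0.19) for Cyp2d40, with groups that overlapped. No single direction is given for Cyp2d26, whose probes differed in sign.

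**Figure D2:**
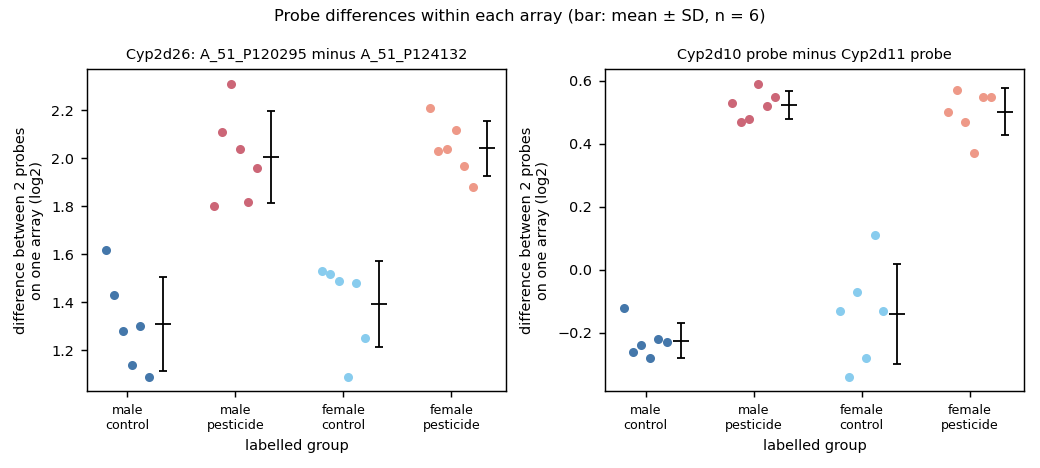
Difference on the log2 scale between 2 probes of the same array (vertical axis), by labelled group, one point per array and a black bar for the mean ± SD of 6 arrays. The left panel shows the Cyp2d26 probes, at 1.09 to 1.62 on the control arrays and 1.80 to 2.31 on the pesticide arrays; the right panel shows Cyp2d10 minus Cyp2d11, at -0.34 to 0.11 and 0.37 to 0.59.

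Cyp2d12 lay at the threshold. Its lowest, median and highest values were 15.70, 15.91 and 16.15 in labelled male control against 15.18, 15.64 and 15.78 with pesticide. Labelled females had 15.54, 15.87 and 16.14 against 15.35, 15.56 and 15.69. The pesticide medians were lower in both labelled sexes, and the groups overlapped. The log2 difference was -0.33 (SE 0.11, limma adjusted p 0.033) in labelled males and -0.28 (SE 0.11, limma adjusted p 0.074) in labelled females. In labelled males leaving out replicate 3 of the pesticide group gave -0.25 (limma adjusted p 0.096), and leaving out control replicate 3, 4 or 6 or pesticide replicate 5 also ended the call (0.07, 0.065, 0.081 and 0.059). In labelled females leaving out control replicate 5 gave -0.34 (limma adjusted p 0.034).

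The remaining 5 probes did not pass in either labelled sex. For Cyp2d22 the log2 difference was -0.20 (95% interval -0.46 to 0.05) in labelled males and -0.10 (-0.36 to 0.15) in labelled females, on arrays ranging from 9.91 to 10.90. The Cyp2d13 probes gave -0.22 (-0.57 to 0.13) and -0.08 (-0.42 to 0.26) in labelled males, and -0.12 (-0.46 to 0.23) and -0.01 (-0.35 to 0.33) in labelled females. Neither probe of this pseudogene passed the test. For Cyp2d40 the bright probe A_55_P2042319 gave 0.08 (-0.31 to 0.47) and 0.09 (-0.30 to 0.48), and the dim probe A_66_P105158 gave 0.21 (-0.20 to 0.61) and 0.18 (-0.22 to 0.59). The dim probe was well above background on 23 of 24 arrays, at log2 5.33 to 7.23. Limma adjusted p over these probes and both labelled sexes was between 0.26 and 0.98. The intervals leave room for differences of the size seen for Cyp2d12, though not always for a fall. Those of the dim Cyp2d40 probe reached down to only -0.20 and -0.22, and that of the bright one in labelled males to -0.31.

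**Figure D3:**
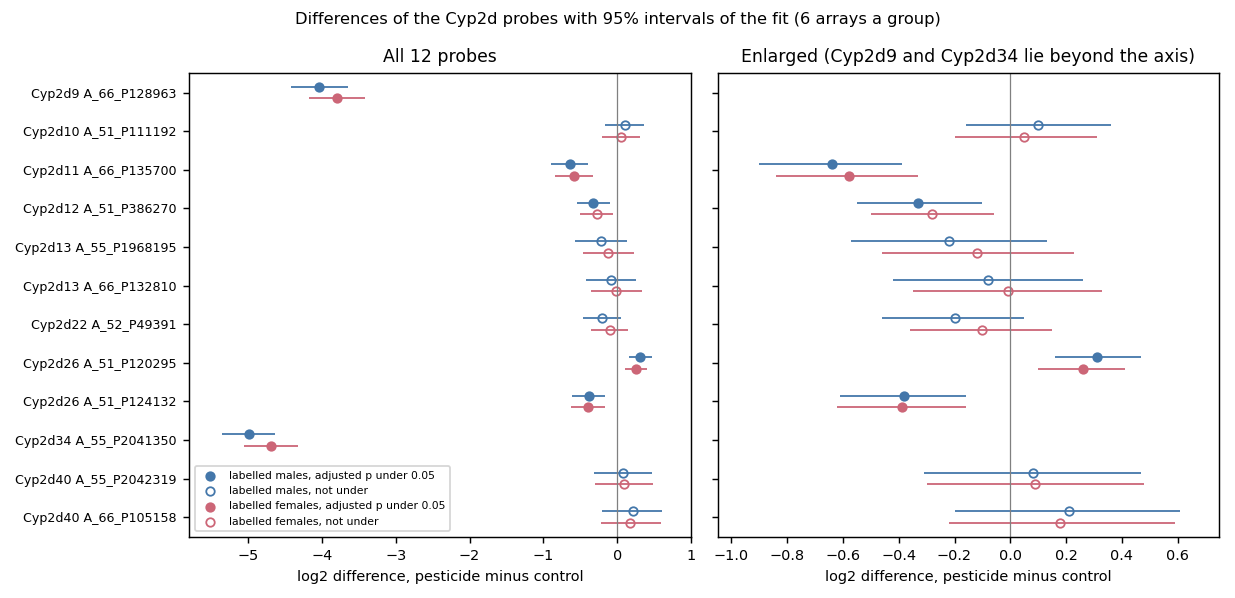
Log2 difference of labelled pesticide minus labelled control (horizontal axis) for each Cyp2d probe (vertical axis), in labelled males and labelled females, with 95% intervals from the limma fit and filled points where the adjusted p was under 0.05. Cyp2d34 and Cyp2d9 lie between -4.99 and -3.80, all others between -0.64 and 0.31, and the enlarged panel shows the opposite signs of the Cyp2d26 probes.

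Control and pesticide arrays did not overlap for 3 of the 12 probes in labelled males, Cyp2d9, Cyp2d34 and Cyp2d11, where 10.2% of all probes did not overlap (5.6% higher and 4.61% lower). In labelled females this held for 2 of 12, Cyp2d9 and Cyp2d34, where 7.83% did not overlap (3.64% higher and 4.19% lower). The difference between labelled sexes was tested too. Xist and the Y-linked transcripts did not separate the labelled sexes within a diet, so these contrasts may not compare males with females. For the interaction of labelled diet with labelled sex, limma called 0 of the 12 probes and 0 of all 32078 (0%), with 0 and 1265 at an unadjusted p under 0.05. Labelled male minus female gave 0 of 12 and 0 of 32078 (0%) within control, with 1 and 1792 at an unadjusted p under 0.05. Within pesticide it gave 0 of 12 and 0 of 32078 (0%), with 0 and 1311. The Cyp2d probe at an unadjusted p of 0.049 within control was Cyp2d34, at 0.36 higher in labelled males (95% interval 0 to 0.72, limma adjusted p 0.89).

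Along the chromosome none of the other genes looked at in or around the cluster had a difference of the size of Cyp2d9 or Cyp2d34. These were the other members, the tested genes of a list of flanking genes, and Cyp2d37-ps. Cyp2d9 lay 83.9 kb from the Cyp2d22 probe and Cyp2d34 at 246.3 kb, with Cyp2d12 between them at 186.6 kb and Cyp2d13 beyond at 265.2 kb. Of 27 listed flanking genes that do not belong to the Cyp2d group, 22 were tested. In labelled males 2 were higher and 3 lower, where 25.7% of 14482 genes passed (15% higher and 10.7% lower, counting 1 probe a gene). In labelled females 0 were higher and 2 lower, where 21.3% passed (11.1% higher and 10.2% lower). In labelled males the flanking gene with the smallest p was Tnfrsf13c, for a receptor on B cells (log2 difference 0.70, limma adjusted p 0.0096). Nfam1 (1.04, limma adjusted p 0.014) and Desi1 (-0.24, limma adjusted p 0.015) followed. The genes next to the cluster, Ndufa6 on the low side and Tcf20 on the high side, gave 0.04 and -0.10 in labelled males and -0.01 and -0.25 in labelled females, none past the threshold. Inside the cluster the pseudogene Cyp2d37-ps, not among the 9, gave 0.06 and 0.08 (limma adjusted p 0.75 and 0.68).

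**Figure D4:**
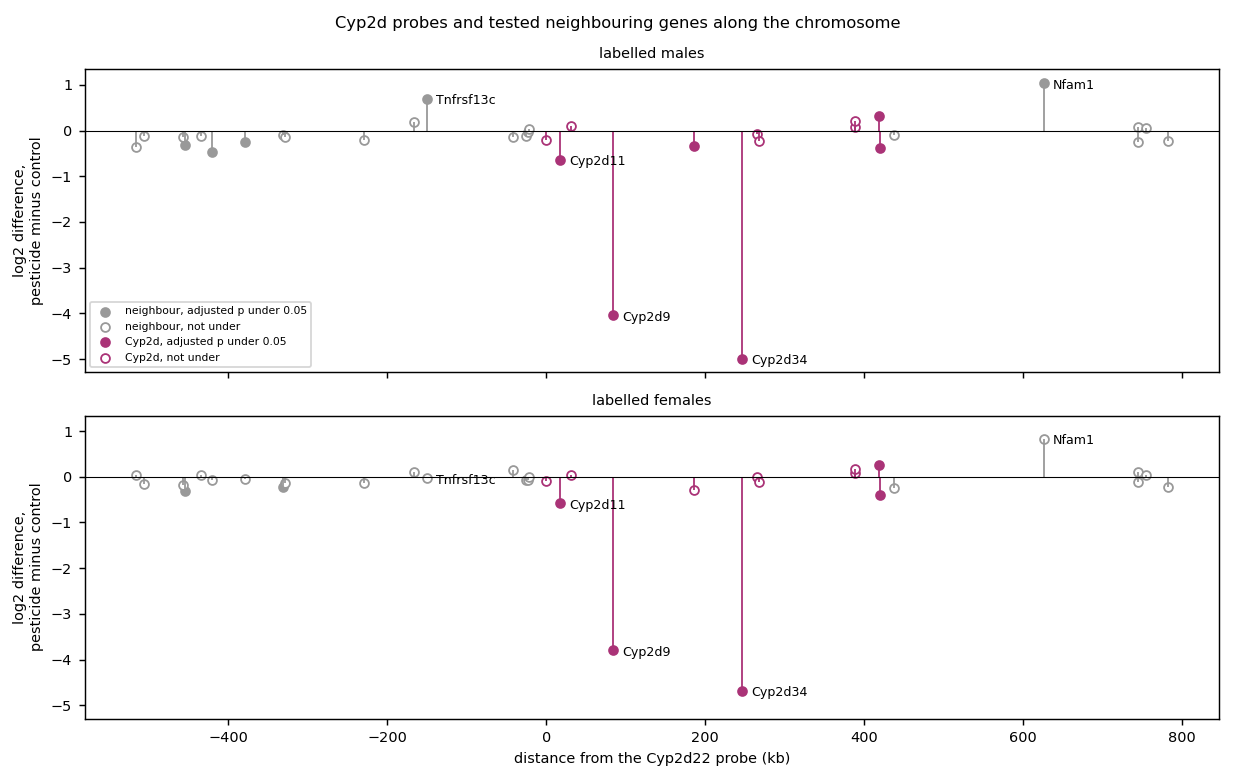
Log2 difference of labelled pesticide minus labelled control (vertical axis) against the distance in kb from the Cyp2d22 probe (horizontal axis), for the 12 Cyp2d probes (purple) and 22 flanking genes (grey), with filled points where the limma adjusted p was under 0.05. Cyp2d9 at 83.9 kb and Cyp2d34 at 246.3 kb lie at -3.80 or lower, and the flanking genes lie between -0.46 and 1.04.

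The samples also varied within their groups, and the members shared part of that variation. Correlations were taken over the deviations of the 24 arrays from their group means, so the difference between labelled diets does not enter, and the points share array and hybridisation. Over the 66 probe pairs Pearson's r ranged from -0.61 to 0.92, with a median of 0.44. No such median was taken over pairs of all tested probes, so it is not given as particular to the family. Genes outside the family reached r of 0.93 with a member (below). The 2 Cyp2d13 probes varied together (r = 0.92), as did the neighbours Cyp2d10 and Cyp2d11 (r = 0.91) in spite of their unequal shift between labelled diets. Cyp2d9 and Cyp2d34 had r = 0.86 (rho 0.78, and r 0.78 without the 2 arrays farthest from the median). Split by labelled diet it was 0.96 on the 12 control arrays and 0.64 on the 12 pesticide arrays. These 2 probes share a run of 17 bases, and whether one reads the other's RNA was not tested.

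The Cyp2d26 probes differed here as well. Probe A_51_P124132 varied with Cyp2d10 (r = 0.87), Cyp2d11 (0.87), Cyp2d12 (0.83) and Cyp2d9 (0.81), and less with its own partner A_51_P120295 (0.47). The partner reached at most 0.56 with another Cyp2d probe, that of Cyp2d22. The bright Cyp2d40 probe varied against the probes of the other genes, with r from -0.61 (Cyp2d10) to -0.22 (Cyp2d13), and along with its own dim partner (0.44).

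**Figure D5:**
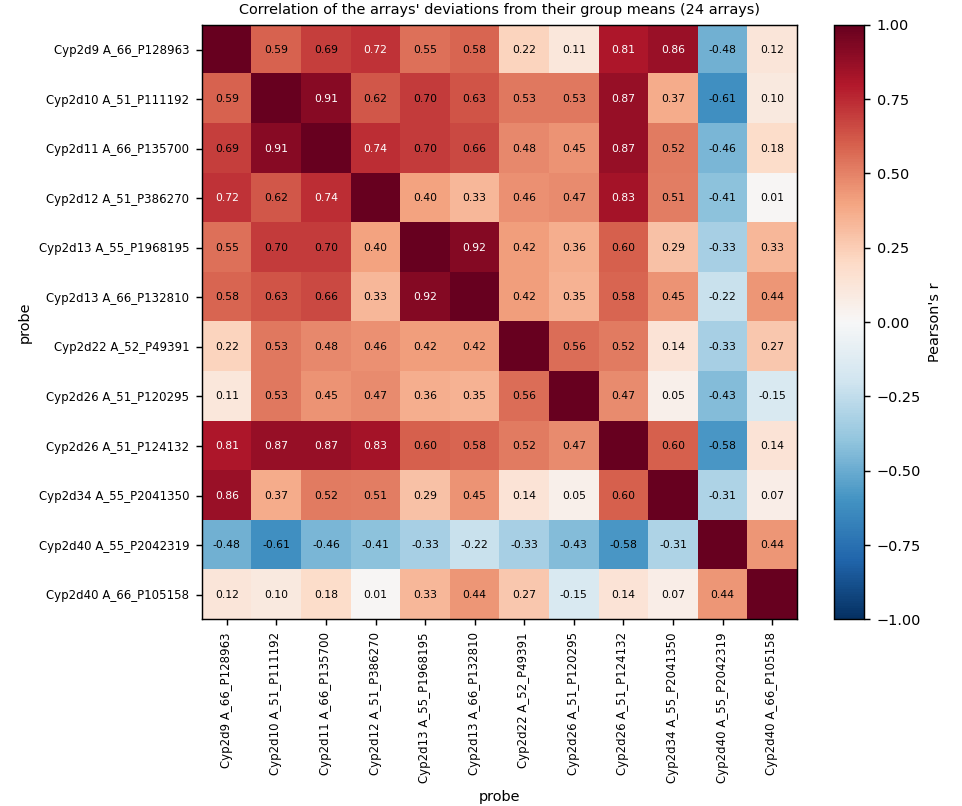
Pearson's r between Cyp2d probes (both axes) over the deviations of 24 arrays from the means of their groups, from blue (negative) to red (positive). Cyp2d26 A_51_P124132 is red with Cyp2d9, Cyp2d10, Cyp2d11 and Cyp2d12 at 0.81 to 0.87, and the row of Cyp2d40 A_55_P2042319 is blue except with its own partner at 0.44.

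Outside the family, the genes whose deviations followed each probe most closely were named by the same measure, over 24 arrays. Cyp2d10 was nearest to Faah, a lipid amide hydrolase (r = 0.93), Proc, the precursor of the anticoagulant protein C (0.90), and Lcat, a plasma cholesterol acyltransferase (0.90). Cyp2d11 had the same 3 genes, at 0.91, 0.93 and 0.90. The Cyp2d26 probe A_51_P124132 also had Proc (0.86), with Ero1b (0.87) and Pdia3 (0.84), which act in protein folding. Its partner A_51_P120295 had Aldh6a1, a mitochondrial dehydrogenase (0.84), Pon1, a serum esterase (0.81), and Smim10l1 (0.81). Cyp2d12 was nearest to Slc3a2 (0.82), Ero1b (0.81) and Mroh1 (0.77), and Cyp2d22 to Rdh16f2 (0.83), Macrod1 (0.78) and Inpp5e (0.77). Of the 36 gene and probe pairs chosen, 16 recurred under scaling by the 75th percentile and 19 under Spearman's rho, so these lists depend on the measure.

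Cyp2d9 was nearest to Fam193b (r = 0.85), Spin1 (0.81) and Ero1b (0.80). Cyp2d34 was nearest to Gstp1 (0.78) and Gstp2 (0.73), which encode glutathione transferases, and to Cflar (0.77). Gstp1 also fell, with log2 differences of -2.75 in labelled males and -2.24 in labelled females (SE 0.21, limma adjusted p 7.1e-10 and 3.4e-08), and so did Gstp2, with -1.62 and -1.48 (SE 0.11, limma adjusted p 8.6e-11 and 5.3e-10). Cflar, a regulator of cell death, did not pass, at 0.06 and 0.04 (limma adjusted p 0.65 and 0.79). Of the nearest genes of Cyp2d9, Spin1 was lower in labelled males, at -0.27 (limma adjusted p 0.032), and gave -0.06 in labelled females (limma adjusted p 0.71). Ero1b gave -0.48 and -0.53 (limma adjusted p 0.1 and 0.076), and Fam193b -0.02 and -0.03 (limma adjusted p 0.92 and 0.86).

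Genes that P450 enzymes depend on were read against the share called over all genes, 25.7% in labelled males and 21.3% in labelled females. Of 7 genes that supply electrons to P450 enzymes, among them Por and Cyb5a, limma called 0 in labelled males and 0 in labelled females, with median log2 differences of -0.01 and -0.05. Of 12 genes of haem synthesis and breakdown 1 was higher and 2 lower in labelled males, and 0 were higher and 3 lower in labelled females, a share near that over all genes. Urod, a decarboxylase of haem synthesis, fell by 0.23 in both (SE 0.07, limma adjusted p 0.018 and 0.021). Hmox1, which breaks haem down, rose by 0.70 in labelled males (SE 0.22, limma adjusted p 0.026).

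Of 26 transcription factors and signalling genes described for liver Cyp2d genes or for liver genes that differ by sex, 6 were higher and 3 lower in labelled males, and 5 higher and 2 lower in labelled females. Over all genes 15% were higher and 10.7% lower in labelled males, and 11.1% and 10.2% in labelled females, and the list's median log2 differences were -0.12 and -0.02. Cux2, a repressor known to be expressed mainly in female liver, rose by 4.36 (SE 0.17, limma adjusted p 3.7e-16) and 4.58 (SE 0.17, limma adjusted p 1.5e-16). Esr1, the oestrogen receptor, rose by 1.11 and 1.15 (SE 0.14, limma adjusted p 4.8e-06 and 3.6e-06). Nr1i3, the xenobiotic receptor CAR, rose by 0.75 and 0.74 (SE 0.13, limma adjusted p 0.00016 and 0.00021). Hnf4a, whose motif core stands in the 5 promoters, gave -0.13 and -0.02 (limma adjusted p 0.43 and 0.92), and Stat5b, a mediator of growth hormone signals, gave 0.18 and 0.37 (limma adjusted p 0.38 and 0.057).

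Among other P450 genes more were higher than lower. Of 57 tested genes in families 1 to 4 outside Cyp2d, 25 were higher and 7 lower in labelled males, and 26 higher and 4 lower in labelled females, with median log2 differences of 0.14 and 0.38. Over all genes the shares were 15% higher and 10.7% lower in labelled males, and 11.1% and 10.2% in labelled females. All 8 Cyp3a genes, all 4 Cyp2a genes and all 3 Cyp2b genes were higher in both labelled sexes. Of 13 Cyp2c genes 7 were higher and 0 lower in both. The smallest p among them belonged to Cyp4a12b (-9.21 and -9.43, SE 0.16, limma adjusted p 2.2e-23 and 1.3e-23) and Cyp4a12a (-8.23 and -8.68, SE 0.26, limma adjusted p 9.5e-18 and 3.2e-18), close copies that encode fatty acid hydroxylases and are known to be expressed mainly in male liver. Their probes may read each other's RNA. Next came Cyp3a44, well above background on no control array and at least 503-fold and 306-fold higher in labelled male and female pesticide. Cyp4a12b was well above background on no labelled female pesticide array, where its signal was at least 658-fold lower. Whether the Cyp2d count differs from that of the other P450 genes was not tested.

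Hepatocyte markers were bright on all arrays, and most Kupffer cell and endothelial markers were higher in the labelled pesticide groups. The share of all genes called higher was 15% in labelled males and 11.1% in labelled females. Of 10 hepatocyte markers 0 passed in labelled males and 1, Fgb, was higher in labelled females, and their mean log2 signal lay between 16.68 and 16.95 on all arrays. Of 10 Kupffer cell markers 9 were higher in both labelled sexes, with a mean of 9.60 to 11.81 on the control arrays and 10.69 to 12.30 on the pesticide arrays. Of 8 endothelial markers 5 and 7 were higher, of 8 stellate cell markers 7 and 3, of 6 B and plasma cell markers 4 and 0, of 7 T and NK cell markers 2 and 1, and of 6 bile duct markers 0 and 0, in labelled males and females. Of 3 erythroid markers 1 was higher and 1 lower in labelled males, and 0 higher and 1 lower in labelled females. The part of these cells in the Cyp2d values was not tested. In bulk liver, fewer cells that express a gene and less RNA per cell cannot be told apart.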

How the data were processed

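Each of 24 liver RNA samples was hybridised to 1 array (200 ng total RNA, 600 ng labelled cRNA). Spot brightness was deposited as fluorescence intensity in scanner files, per the file headers, extracted with Agilent Feature Extraction 10.10.1.1 per the submitters' processing notes. A further deposited table gives log2 values, made by the authors by filtering, log2 transformation and quantile normalization of the median signal per the labels' protocols. The submitters' processing notes also name limma.

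Here, log2 median signal without background subtraction was quantile normalized over 56605 probes after control and outlier spots (0 to 9 per array) were left out. A probe was tested when well above background on at least 4 of 6 arrays of at least 1 group, so a probe bright in 1 group could pass through that group. limma 3.58.1 in R 4.3.3 fitted 1 mean per group to all 24 arrays, two-sided, with Benjamini-Hochberg adjustment over 32078 probes and a threshold of 0.05. The method was tested on simulated data with independent noise on each array and changes in 1 contrast. That test does not cover variation shared by arrays of a slide. Probes well above background numbered 29935 to 39032 per array (median 31519), the median signal was 63 to 109, and 0 spots were saturated. The number of arrays limits the precision.

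The members, the gene lists and the comparisons of 2 probes on an array were chosen with earlier results of these data known. All Cyp2d probes are described. Other genes are represented by their brightest tested probe, of which each list names up to 3 with the smallest p, beside genes referred to by role and chosen after their values were seen. Likeness names the 3 genes with the highest r for each probe. Rank correlations used SciPy 1.17.1, and promoters aligned with Biopython 1.88. Alternatives covered background correction, scaling, filters, slide and replicate blocks, array weights, the deposited value table and single arrays left out.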

Additional observations from a re-analysis of the deposited data

Results flagged for a closer look

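Each of the 12 Cyp2d probes was checked in each of the 4 groups of 6 arrays for a sample far from the other 5, and 4 of 48 such groups had one. Chance alone marks about 1 in 20 groups. Replicate 6 of labelled male control was the highest of its group for Cyp2d10, at log2 17.79 with the next array at 17.28, and for Cyp2d11, at 18.02 with the next at 17.56. Replicate 3 of labelled male pesticide was the lowest for Cyp2d11, at 16.46 with the next at 16.83. Replicate 3 of labelled female control was the lowest for the Cyp2d13 probe A_55_P1968195, at 10.25 with the next at 10.70. The Cyp2d11 difference in labelled males passed the threshold without any single array, at -0.69 to -0.54 (limma adjusted p 0.00044 to 0.0023).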

How the results depend on the processing

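Over the log2 differences of the 12 Cyp2d probes and 5 comparisons, 2278 of 2318 values under the alternatives stayed on their side of the threshold, 35 lost a call and 5 gained one. Of the values that had not passed, 123 changed sign, and of those that had, 0. Cyp2d9 and Cyp2d34 passed in both labelled sexes under all alternatives run. Counts moved with the number of arrays. Slides 1, 2 and 3 alone, with 2 arrays a group, gave 1052, 583 and 459 of all probes and 2, 2 and 2 Cyp2d probes in labelled males, and 1041, 319 and 346 of all probes and 3, 2 and 2 Cyp2d probes in labelled females. Labelled male minus female within pesticide gave 2 probes in slide 1 alone. Without 1 array in turn the counts were 5921 to 7483 of all probes and 5 to 6 Cyp2d probes in labelled males, 4777 to 6526 and 4 to 6 in labelled females, and 0 to 1 of all probes for labelled male minus female within control and within pesticide. The 1 came without labelled female control replicate 1 or 6 within control, and without labelled female control replicate 4 within pesticide.

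The share of higher among called probes was 52.1% in labelled males, 38.1% when the median signal and 43.6% when the processed signal was divided by its 75th percentile, and 48.5%, 43.1% and 44.5% in labelled females. The higher Cyp2d26 signal of A_51_P120295 in labelled females also lost its call without pesticide replicate 1 or 4 or control replicate 2 or 6 (limma adjusted p 0.057, 0.059, 0.052 and 0.055). Cyp2d12 in labelled males lost its call with no filter (0.056) and with only the arrays compared (0.051), and in labelled females gained one with the processed signal (0.038). With the slide as a block 7540 and 6286 probes passed.

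The labels do not say that the replicate numbers pair the samples, and they were not taken as pairs. The correlation of same-numbered arrays of different groups was -0.12 to 0.34 over 36 pairs (median 0.08), with 15 over 0.1. For other numbers it was -0.34 to 0.33 over 180 pairs (median -0.02), with 34 over 0.1. Of 24 arrays 14 correlated best with an array of their own number, where 4 would if neither number nor slide carried anything. Same-numbered arrays also shared a slide, so this count cannot tell pairing from a slide effect. With the replicate block 8099 probes passed in labelled males and 6751 in labelled females, and Cyp2d12 in labelled females passed (limma adjusted p 0.041). Probes near background, such as Cyp2d34 in the pesticide groups, are limited by signal over background. Differences between 2 probes of an array, a comparison added after seeing the data, kept their direction under all alternatives run for the Cyp2d26 probes and for Cyp2d10 minus Cyp2d11. For Cyp2d26 in labelled males slides 1 and 2 alone gave 0.43 and 0.97, and for Cyp2d10 minus Cyp2d11 slide 1 alone gave 0.69 in labelled males and 0.77 in labelled females.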
